A study of Mus musculus with 28 samples.

Results

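The regions described here are stretches of mouse chromatin marked by H3K27me3 whose midpoint falls on an annotated CpG island outside the promoters of known genes. They were taken from the deposited count table by 4 criteria applied to its annotation columns: the detailed annotation starts with CpG, the basic annotation is not a promoter, the nearest gene is not a noncoding RNA, and the region is shorter than 50000 bp. Of 26326 regions in the table, 139 met all 4, so no measured level or change was used to choose them. Microglia, the resident macrophages of the brain, were sorted by flow cytometry; all donors were adult, male, wild type and of strain C57BL/6. The group called Basal received regular diet, and its gate in the labels is CD44Low CD45Low CD11bLow. The other 3 groups, CD229-CD11c-, CD229+CD11c- and CD229+CD11c+, followed 4 weeks of a diet with 0.2% cuprizone. Cuprizone is a copper chelator that leads to loss of oligodendrocytes and myelin. CD229 is a surface receptor of the SLAM family and CD11c is the integrin alpha X chain. Brains of 2 to 6 mice were pooled for a sort, so a library is a pool and not an animal. Diet and gate differ together between Basal and each cuprizone group, and their parts in a difference cannot be told apart. Counts were used for 3 libraries in each of the 4 groups, and p-values measure the spread between these 12 libraries.

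CpG islands are short stretches rich in cytosine-guanine dinucleotides that are mostly free of DNA methylation. In many cell types Polycomb repressive complex 2 (PRC2) is recruited to islands of silent genes and trimethylates lysine 27 of histone H3, and Polycomb complex 1 (PRC1) binds the mark through its chromobox subunits. Genes held in this state are typically developmental regulators, signalling molecules and genes of other lineages, which in microglia include many neuronal genes.

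Most of these regions lay close to a gene start although their midpoints were not annotated as promoter. The annotation placed 107 in introns, 90 of them in a first intron, and 32 between genes. Midpoints were downstream of the nearest transcription start site (TSS) in 119 regions and upstream in 20, at a median distance of 877 bp, against 24396 bp for all regions. In 96 of the 139 (69.1%) the distance to the nearest TSS was no more than the region's reach on either side of its midpoint, so the TSS lay inside the region. Among the 19566 other intronic or intergenic regions under the same limits on length and gene type, 14.9% held a TSS. "Outside promoters" therefore describes the midpoint of a region and not its whole extent. Lengths ran from 1250 to 41939 bp with a median of 5562 bp, and all regions had a median of 6386 bp. None overlapped another region. The 3 longest belonged to Celf5 (chr10:81443244-81485183), Lhx6 (chr2:36074939-36113987) and Lhx8 (chr3:154310224-154346677). A single coding-gene region with a CpG midpoint was left out by the length limit, an 89362 bp region at Unc5b (chr10:60785871-60875233), a netrin receptor. It changed from Basal by 0.33 ± 0.07 (log2, SE) in CD229+CD11c- microglia, and Celf5 just inside the limit by 0.58 ± 0.07. All coordinates are in mm10, counted from 1.

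In the authors' deposited table of basal regions, enrichment over input was a median of 2.08 on the log2 scale for these 139 and 1.49 for all regions, and 68 of the 139 fell in its top decile. Chromosome X held 15 of them (10.8%), against 1.09% of all regions. The nearest genes numbered 138, because Gm5796 was nearest to a pair of regions. Gm5796, Tmem181b-ps, H2-Q5, H60b and H2al1j belong to groups of near-identical copies, so their counts are uncertain.

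The base composition of the gene starts inside the regions was read from RefSeq promoter windows (GRCm38.p6, the build mm10 corresponds to), each covering 250 bases before to 50 bases after a TSS. A window of the region's own nearest gene lay inside 72 of the 139 regions, with 87 windows in all. They held a median of 21 CpG dinucleotides and 64% G+C, against 7 CpG and 52.7% G+C over all 32851 windows. The ratio of observed to expected CpG was at least 0.6, with at least 50% G+C, in 71.3% of the 87 and 33.5% of all windows. Windows inside other intronic or intergenic regions that held a TSS had a median of 10 CpG. The regions were chosen for a CpG island at the midpoint, so CpG-rich windows inside them follow in part from that choice. These values describe the regions and are no separate finding. The motif counted was CG, which reads the same on both strands. The windows of 6 genes are printed 5′ to 3′ on the strand of the gene, with every CG in capitals. Cbarp, Ptprf and Nexmif had the largest rises in CD229+CD11c- microglia among regions whose window could be shown, Zfp536 and Gnai1 those in CD229+CD11c+ microglia, in both cases among regions at or above the median level of the 139, and Rnf144b is the one region called lower whose own window lies inside it.
Cbarp: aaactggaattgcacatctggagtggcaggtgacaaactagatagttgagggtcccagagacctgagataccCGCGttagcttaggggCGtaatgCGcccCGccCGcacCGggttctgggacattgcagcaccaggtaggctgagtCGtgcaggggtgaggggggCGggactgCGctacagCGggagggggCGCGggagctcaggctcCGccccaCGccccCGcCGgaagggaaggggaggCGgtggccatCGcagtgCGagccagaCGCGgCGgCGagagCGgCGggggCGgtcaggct
Ptprf: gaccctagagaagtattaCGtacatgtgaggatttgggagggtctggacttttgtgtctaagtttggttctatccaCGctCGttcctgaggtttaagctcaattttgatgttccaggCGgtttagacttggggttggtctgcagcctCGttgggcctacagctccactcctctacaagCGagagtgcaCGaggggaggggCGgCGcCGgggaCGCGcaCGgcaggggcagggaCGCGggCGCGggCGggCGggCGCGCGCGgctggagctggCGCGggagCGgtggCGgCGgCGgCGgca
Nexmif: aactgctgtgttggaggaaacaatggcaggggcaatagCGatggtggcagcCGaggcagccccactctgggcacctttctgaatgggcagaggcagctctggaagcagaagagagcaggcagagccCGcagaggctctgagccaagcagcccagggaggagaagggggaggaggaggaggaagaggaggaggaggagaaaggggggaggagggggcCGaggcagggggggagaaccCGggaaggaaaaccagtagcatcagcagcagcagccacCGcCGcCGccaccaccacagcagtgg
Zfp536: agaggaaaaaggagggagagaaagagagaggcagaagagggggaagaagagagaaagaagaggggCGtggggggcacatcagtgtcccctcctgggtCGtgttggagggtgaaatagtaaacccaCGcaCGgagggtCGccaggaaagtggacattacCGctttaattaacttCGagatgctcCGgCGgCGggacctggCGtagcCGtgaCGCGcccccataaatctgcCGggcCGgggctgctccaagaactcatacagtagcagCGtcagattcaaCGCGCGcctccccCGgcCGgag
Gnai1: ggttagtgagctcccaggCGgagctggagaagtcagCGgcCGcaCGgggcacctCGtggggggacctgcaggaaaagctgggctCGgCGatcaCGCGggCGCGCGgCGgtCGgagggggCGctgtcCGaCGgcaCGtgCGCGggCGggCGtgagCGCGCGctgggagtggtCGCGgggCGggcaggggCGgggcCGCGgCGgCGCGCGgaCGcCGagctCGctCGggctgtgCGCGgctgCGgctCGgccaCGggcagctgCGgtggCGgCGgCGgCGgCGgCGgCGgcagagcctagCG
Rnf144b: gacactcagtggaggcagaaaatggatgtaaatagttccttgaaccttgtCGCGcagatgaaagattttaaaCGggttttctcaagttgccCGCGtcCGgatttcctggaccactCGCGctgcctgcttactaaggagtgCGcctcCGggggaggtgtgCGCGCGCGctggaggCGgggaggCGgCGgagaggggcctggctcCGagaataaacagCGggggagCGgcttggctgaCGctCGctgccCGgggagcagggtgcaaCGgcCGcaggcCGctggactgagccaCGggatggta
The windows are chr10:80139318-80139617 (Cbarp), chr4:118291348-118291647 (Ptprf), chrX:104201135-104201434 (Nexmif), chr7:37769703-37770002 (Zfp536) and chr5:18360364-18360663 (Gnai1), all on the minus strand, and chr13:47122470-47122769 (Rnf144b) on the plus strand. The count of CG ranged from 8 in the Nexmif window to 53 in the Gnai1 window. The Rnf144b window, at a region called lower, held 27, as many as the Cbarp window, at a region called higher. Over the 72 genes with a window in their own region, the median was 23 CG for the 40 called higher in CD229+CD11c- microglia and 20 for the other 32.

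Each library held 7740002 to 11362168 tags in regions, and all 139 regions passed the filter on low counts, with mean counts from 26.1 to 3057. Within each cuprizone group replicate 3 stood apart: the chi-square per degree of freedom over all regions was 1.68 to 1.94 between replicates 1 and 2 and 3.43 to 7.6 when replicate 3 was one of the pair. The titles of replicates 1 and 2 of those groups, and of Basal replicates 4 and 5, carry the tag PE150, and those of Basal replicate 3 and of the third replicates do not. The labels do not say what the tag stands for. With 1 untagged library in a group, values could be had within the tagged libraries alone. Since the regions were called from Basal replicates 1 and 2, their overlap with marker genes describes those libraries and checks none of the 12 counted here. A region overlapped 1 of 40 homeostatic microglial genes, 19 of the 62 disease-associated microglial genes that could be located, 36 of 38 genes of neuronal identity, 26 of 30 astrocyte genes, 25 of 29 oligodendrocyte genes, 36 of 44 endothelial and mural genes, 32 of 51 lymphoid genes and 13 of 27 genes of peripheral macrophages. None of the 139 overlapped a homeostatic or disease-associated microglial gene, nor an astrocyte, lymphoid or peripheral macrophage gene. They overlapped 1 gene of neuronal identity, 2 oligodendrocyte genes and 2 endothelial and mural genes.

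The question put to the data was whether H3K27me3 over these regions differed between basal microglia and each sorted cuprizone group, and between the groups. In CD229+CD11c- microglia, H3K27me3 rose over 69 of the 139 regions and fell over 1 (edgeR quasi-likelihood test, Benjamini-Hochberg adjusted p under 0.05 over all 26326 regions). The background of all regions called in this comparison was 13%, with 9.52% called higher and 3.47% lower, and 49.6% of the 139 were called higher. In CD229+CD11c+ microglia, 37 rose (26.6%) and 2 fell, against a background of 5.79% called (4.33% higher and 1.47% lower). All regions are an unlike background, since 20% of them held a TSS against 69.1% of the 139. Promoter regions of any length, not nearest to a noncoding RNA, numbered 797. Of these, 271 (34%) were higher and 17 lower in CD229+CD11c-, with a median of 0.25. In CD229+CD11c+ 156 (19.6%) were higher and 16 lower, with a median of 0.20. In CD229-CD11c- microglia none was called, nor was any of the 26326 (0.0%). In sorted populations, more cells that carry the mark and more mark per cell cannot be told apart. The median log2 fold change from Basal over the 139 was 0.12, 0.44 and 0.35 for CD229-CD11c-, CD229+CD11c- and CD229+CD11c+ microglia, and over all regions it was 0.01, -0.03 and -0.01. With total-count scaling the median of all regions in CD229+CD11c- moved to -0.16 and that of the 139 to 0.30, with 49 called higher and 4 lower. Every library of the CD229+CD11c- group was above every Basal library at 90 regions (64.7%, against 16% of all regions) and below at 4 (2.88%, against 15%). For CD229+CD11c+ the numbers were 71 above (51.1%, against 14.7% of all regions) and 6 below (4.32%, against 12.9%). The comparisons with Basal share their 3 Basal libraries.

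**Figure D1:**
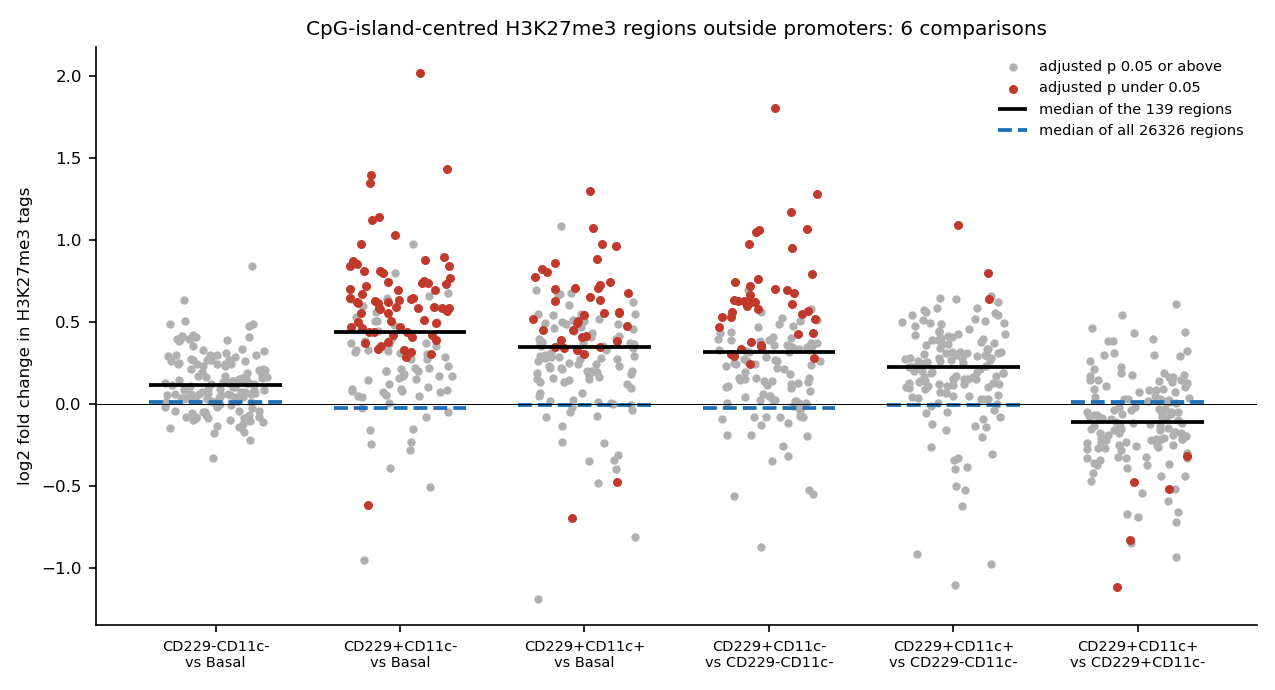
Log2 fold change (vertical axis) of each of the 139 regions in 6 comparisons (horizontal axis), 1 point a region, red where the adjusted p was under 0.05, with the median of the 139 as a black line and the median of all 26326 regions as a dashed blue line. The black line lies at 0.44 for CD229+CD11c- and 0.35 for CD229+CD11c+ against Basal, and at -0.11 for CD229+CD11c+ against CD229+CD11c-.

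Counts of calls in CD229+CD11c+ microglia moved with single libraries: 8 regions were called without Basal replicate 4, 10 without CD229+CD11c+ replicate 1, 14 without CD229+CD11c+ replicate 2, 20 without Basal replicate 3 and 24 without Basal replicate 5, in place of 39, and 88 (82 higher, 6 lower) in PE150 libraries alone. Calls over all regions moved too, from 5.79% to 1.68% without Basal replicate 4 and to 16.2% in PE150 libraries alone, where the shares of the 139 were 5.76% and 63.3%. In CD229+CD11c- microglia 70 regions called became 44 without Basal replicate 4, 37 with offsets that level each library's trend with basal enrichment and density, and 93 (91 higher, 2 lower) in PE150 libraries alone, with 7.92%, 7.76% and 21% of all regions called in these fits. In CD229-CD11c- microglia, 12 of the 139 had an unadjusted edgeR p under 0.05, as did 1103 of all 26326 regions. DESeq2 also called 0 there, and PE150 libraries alone gave 21 called, all higher (15.1%, against 3.48% of all regions).

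The share of a library's region tags that fell in the 139 regions gave the same order without a model. It was 0.514%, 0.483% and 0.499% in Basal replicates 3, 4 and 5, and 0.542%, 0.523% and 0.505% in the CD229-CD11c- replicates. The CD229+CD11c- replicates had 0.636%, 0.635% and 0.624%, and the CD229+CD11c+ replicates 0.597%, 0.586% and 0.571%. The libraries of both CD229+ groups lay above all Basal and all CD229-CD11c- libraries, and those of CD229+CD11c- above those of CD229+CD11c+. The ranges of Basal and CD229-CD11c- overlapped.

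**Figure D2:**
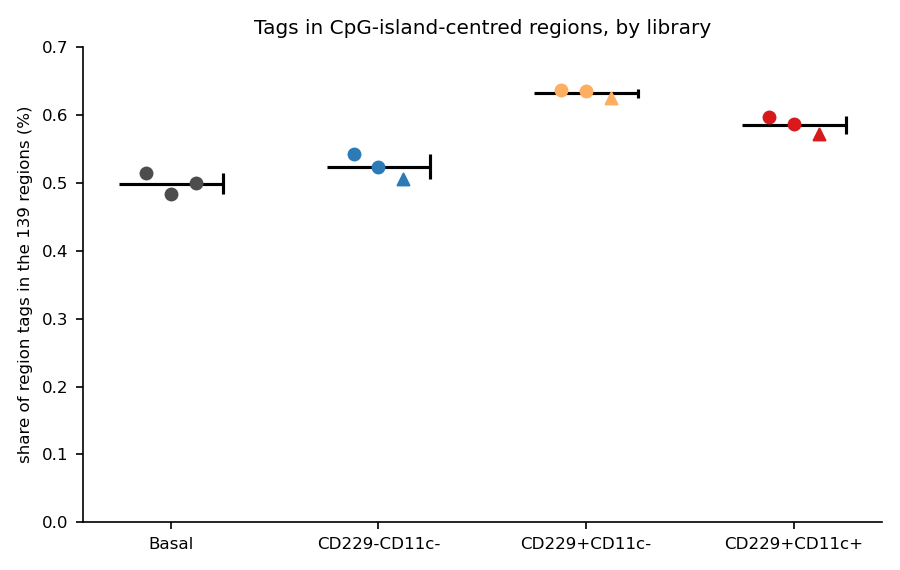
Share of each library's region tags that fell in the 139 regions (vertical axis, percent) for the 4 groups, 1 point a library, triangles for replicate 3 of the cuprizone groups, with the mean as a horizontal line and ± 1 SD as a vertical bar (n = 3). CD229+CD11c- libraries lie between 0.624% and 0.636%, above all others.

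Of the 139 regions, 34 had a nearest gene on any of the 20 role lists and 105 did not. Among those 34, genes of axon guidance and cell adhesion were the largest group by role. Of 12 such regions, 9 rose in the CD229+CD11c- group and 6 in the CD229+CD11c+ group, with none called lower and medians of 0.63 and 0.58. The other 357 regions nearest to a gene of that list had 73 higher and 9 lower in CD229+CD11c-, with a median of 0.08. In CD229+CD11c+ these 357 had 38 higher (10.6%) and 3 lower, with a median of 0.11. The widest change among all 139 was at Cdh23, the tip-link cadherin of sensory hair cells, at chr10:60684893-60687507 in its second intron. Its Basal libraries had 8.90, 5.70 and 4.31 CPM (counts scaled to the library's effective total) and its CD229-CD11c- libraries 8.65, 7.07 and 5.99 CPM. CD229+CD11c- libraries had 25.2, 23.8 and 26.9 CPM and CD229+CD11c+ libraries 14.4, 17.2 and 14.7 CPM. Both CD229+ groups lay clear of Basal and of each other, and Basal overlapped CD229-CD11c-. The log2 fold change from Basal was 2.02 ± 0.19 (SE, edgeR adjusted p = 4.77e-07) in CD229+CD11c- and 1.30 ± 0.20 (edgeR adjusted p = 0.00048) in CD229+CD11c+ microglia.

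Members of the ephrin system, contact signals between neighbouring cells, were marked on both sides of the pair. At Efnb2, an ephrin ligand (chr8:8658480-8661323, first intron), Basal libraries had 10.5, 6.90 and 8.11 CPM, CD229+CD11c- libraries 22.9, 18.1 and 23.8 CPM and CD229+CD11c+ libraries 16.3, 14.9 and 13.3 CPM. All 3 groups were apart, with changes of 1.35 ± 0.17 (edgeR adjusted p = 9.17e-06) and 0.80 ± 0.17 (edgeR adjusted p = 0.00829) from Basal. Among the receptors, Epha7 rose by 0.84 ± 0.10 and 0.52 ± 0.10 in the CD229+CD11c- and CD229+CD11c+ groups. Ephb1 rose by 0.81 ± 0.22 in CD229+CD11c-, a call that ended in 5 of its 13 alternatives, and its 0.68 ± 0.22 in CD229+CD11c+ had an edgeR adjusted p of 0.0747. Epha2 rose by 0.59 ± 0.12 in CD229+CD11c-, from a region that ends upstream of its start. Slit3, a secreted guidance cue read by Robo receptors, was called higher in both CD229+ groups, with 0.71 ± 0.18 in CD229+CD11c+. The adhesion cadherin Cdh11 rose by 0.65 ± 0.15 in both CD229+ groups. The calls in CD229+CD11c+ ended in 5 of 13 alternatives for Slit3 and in 3 for Cdh11. In both, as in Ephb1, replicate 3 was the lowest library of each cuprizone group. Cdh8, Sema5a and Adamts19, which passed in neither group, had values between 0.07 and 0.16 for CD229+CD11c- and between 0.36 and 0.50 for CD229+CD11c+.

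Several of the largest rises were at genes that no list held. Ptprf, a LAR-type phosphatase of synapses and adhesion sites (chr4:118287393-118294888, first intron), had 31.9, 26.3 and 26.8 CPM in Basal, 57.4, 56.9 and 52.4 CPM in CD229+CD11c- and 37.0, 41.3 and 46.2 CPM in CD229+CD11c+ libraries. Its changes from Basal were 0.97 ± 0.11 (edgeR adjusted p = 1.98e-06) and 0.55 ± 0.11 (edgeR adjusted p = 0.00383), with no overlap between groups. Ajuba, a LIM-domain scaffold of cell junctions and Hippo signalling, had 18.3, 15.8 and 18.2 CPM in Basal libraries, against 36.3, 37.3 and 42.0 CPM for CD229+CD11c- and 37.1, 29.0 and 35.9 CPM for CD229+CD11c+. Those changes, 1.14 ± 0.13 and 0.96 ± 0.13, passed in all 13 alternatives of each comparison. Ocln, which encodes the tight-junction protein occludin, was singled out after its values were seen: it rose by 1.43 ± 0.19 in CD229+CD11c- (edgeR adjusted p = 2.26e-05), and its 0.60 ± 0.20 in CD229+CD11c+ did not pass (edgeR adjusted p = 0.0839). The region nearest to Spag6, a protein of the ciliary axoneme, has its midpoint at -8631 bp from the start and rose by 1.40 ± 0.23 in CD229+CD11c-, its Basal libraries spreading from 10.9 to 23.6 CPM.

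**Figure D3:**
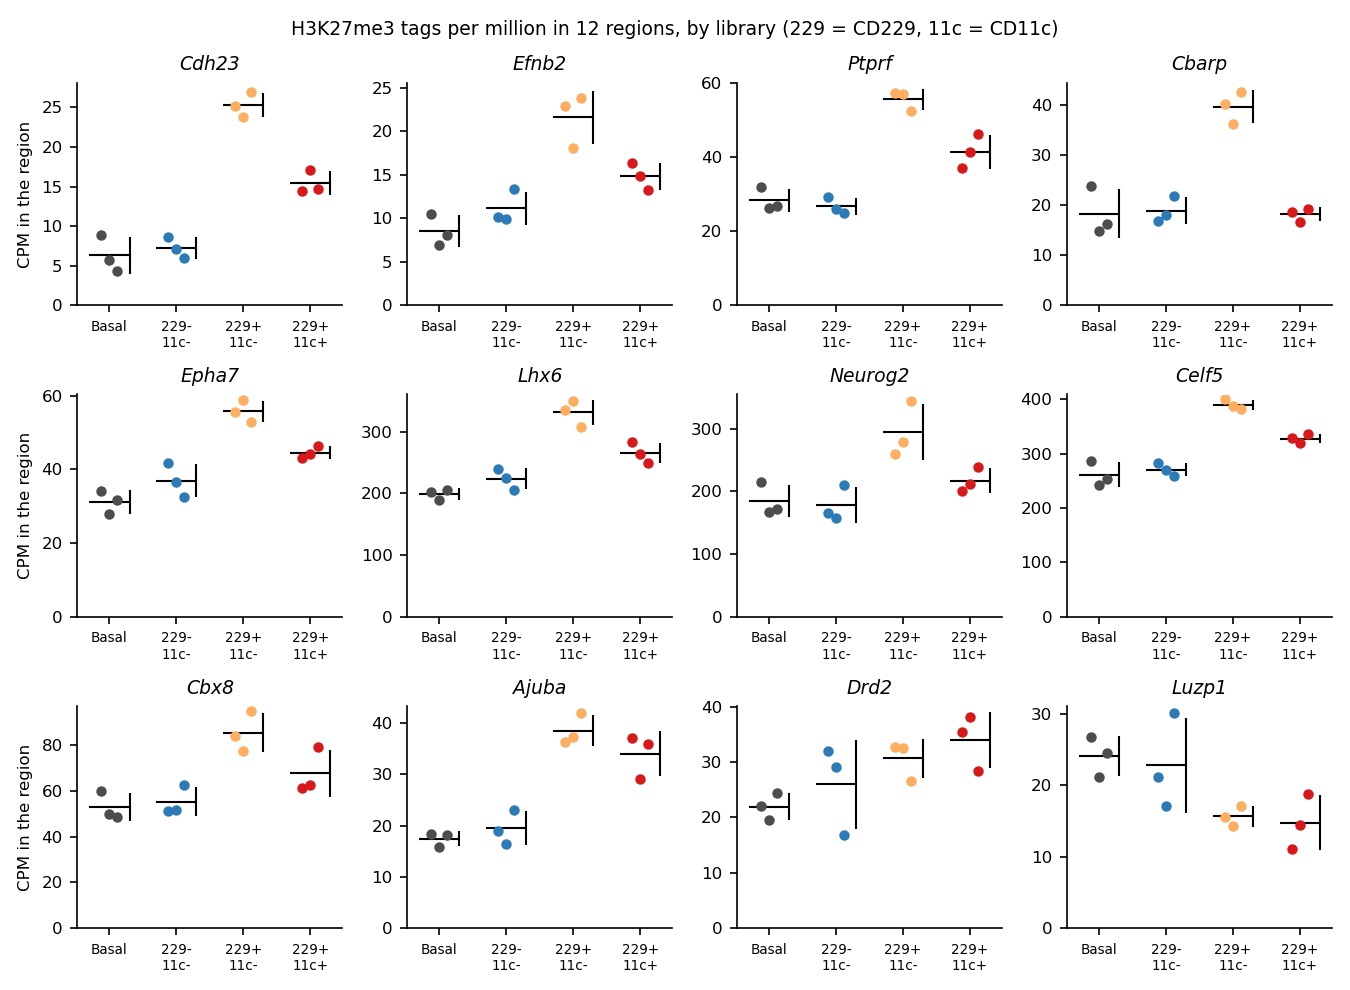
H3K27me3 CPM (vertical axes, from 0) in 12 regions for the 3 libraries of each group, with the mean as a line and ± 1 SD as a bar (n = 3); the 12 were picked to show guidance and adhesion genes, transcription factors, a neuronal gene, a Polycomb gene, and one fall. Cdh23, Efnb2, Ptprf and Epha7 show CD229+CD11c- highest and CD229+CD11c+ between it and Basal, while Cbarp in CD229+CD11c+ sits at 16.6 to 19.3 CPM beside Basal.

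Transcription factors of embryonic patterning were nearest to 7 of the regions. In the CD229+CD11c- group 3 of 4 homeobox regions and 3 of 3 regions of other developmental factors were called higher, in the CD229+CD11c+ group 2 and 2, and none was called lower. Of the lists' other regions, 103 of 319 (32.3%) and 149 of 618 (24.1%) were called higher in CD229+CD11c-. In CD229+CD11c+ 69 (21.6%) and 90 (14.6%) of them were called higher. Lhx6, a specifier of cortical interneurons, had 202, 188 and 206 CPM in Basal, 240, 225 and 206 CPM in CD229-CD11c-, 336, 349 and 308 CPM in CD229+CD11c- and 283, 264 and 249 CPM in CD229+CD11c+ libraries. Its groups other than Basal and CD229-CD11c- did not overlap, with changes from Basal of 0.73 ± 0.07 (edgeR adjusted p = 9.42e-07) and 0.41 ± 0.07 (edgeR adjusted p = 0.002) in the CD229+ groups. Irx3, an Iroquois factor, rose by 0.62 ± 0.07 and 0.40 ± 0.07, and Sp8, a zinc-finger factor of limb and forebrain, by 0.62 ± 0.07 and 0.38 ± 0.07. Neurog2, a proneural factor, rose by 0.67 ± 0.12 in CD229+CD11c- and had 0.23 ± 0.12 in CD229+CD11c+ (edgeR adjusted p = 0.287). Sall4, a stem-cell zinc-finger protein, rose by 0.50 ± 0.13 and 0.45 ± 0.13, the first of these lost in 3 of 13 alternatives. Offsets that level the trend with basal enrichment left Lhx6 at 0.36, Sp8 at 0.34 and Irx3 at 0.32 in CD229+CD11c-, still called, and Neurog2 at 0.24, no longer called. Lmx1a rose by 0.41 ± 0.13 in CD229+CD11c-, a call lost in 6 of 13 alternatives, and Lhx8 passed in neither group with 0.17 ± 0.07 and 0.14 ± 0.07. Zfp536, a zinc-finger repressor that was also on the oligodendrocyte list, rose by 0.85 ± 0.16 and 0.82 ± 0.16. In that list Ugt8a, an enzyme of myelin galactolipids, did not pass, at 0.62 ± 0.19 in CD229+CD11c+ (edgeR adjusted p = 0.0569).

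Of 8 regions at genes of neuronal transmission, 3 rose and none fell in each CD229+ group. That is 37.5%, where 49.6% of the 139 and 14.4% of the list's other 666 regions were called higher in CD229+CD11c-. In CD229+CD11c+ 26.6% of the 139 and 7.96% of those 666 were called higher. Celf5, a neuronal RNA-binding protein, had 286, 242 and 254 CPM in Basal, 400, 387 and 382 CPM in CD229+CD11c- and 328, 319 and 335 CPM in CD229+CD11c+ libraries, changes of 0.58 ± 0.07 (edgeR adjusted p = 4.78e-06) and 0.33 ± 0.07 (edgeR adjusted p = 0.0065) with no overlap. The first of these was 0.14 and not called with the enrichment offsets. The muscarinic receptor Chrm4 rose by 0.73 ± 0.12 in CD229+CD11c- and had 0.34 ± 0.12 in CD229+CD11c+ (edgeR adjusted p = 0.106). The postsynaptic scaffold Dlgap1 rose by 0.84 ± 0.25 and 1.07 ± 0.25. In its CD229+CD11c+ libraries the values were 30.6, 27.5 and 20.6 CPM, with replicate 3 lowest, and in CD229-CD11c- 22.3, 20.3 and 10.1 CPM, again with replicate 3 lowest. The dopamine receptor Drd2 rose by 0.62 ± 0.18 in CD229+CD11c+ and had 0.48 ± 0.18 in CD229+CD11c- (edgeR adjusted p = 0.0883). That call ended in 6 of 13 alternatives, and the one for Dlgap1 in 4. Drd2 was one of 4 regions called higher in CD229+CD11c+ and not in CD229+CD11c-, with Amph, Nos1 and Tenm3, which were named after their values were seen. The GABA-A receptor subunit Gabrb1 had 0.05 ± 0.11 and 0.20 ± 0.11, and the pentraxin receptor Nptxr 0.18 ± 0.07 and -0.02 ± 0.07.

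A pair of intergenic regions, neither holding a TSS, had a gene of the Polycomb machinery as their nearest gene. The region nearest to Cbx8, a chromobox subunit of PRC1, lies 6565 bp from its start and had 59.7, 50.05 and 48.6 CPM in Basal, 84.1, 77.5 and 94.6 CPM in CD229+CD11c- and 61.1, 62.4 and 79.3 CPM in CD229+CD11c+ libraries. Only the first of these changes passed, at 0.70 ± 0.11 (edgeR adjusted p = 0.00018) against 0.36 ± 0.11 (edgeR adjusted p = 0.0633), and with the enrichment offsets it was 0.26 and not called. The region nearest to Bcor, a subunit of a variant PRC1, lies 273255 bp from its start and rose by 0.56 ± 0.16 in CD229+CD11c-, with -0.04 ± 0.17 in CD229+CD11c+; the call ended in 6 of 13 alternatives, as did that for Dll1. Of 2 regions at signalling ligands, the one at the Notch ligand Dll1 rose by 0.33 ± 0.10 in CD229+CD11c-, while the one at the ErbB ligand Nrg1 passed in neither group. On the endothelial and mural list, Myh11, a smooth-muscle myosin, rose by 0.74 ± 0.17 and 0.67 ± 0.17 beside Efnb2. Of 20 lists, 11 had no gene nearest to any of the 139 regions, among them the Hox clusters, the homeostatic and disease-associated microglial genes and the interferon and cytokine genes. Over all regions, 1, 22, 81 and 173 were nearest to genes of these lists, in the same order. Their absence here is therefore not read as a trait of the 139.

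Falls were few. Luzp1, a leucine-zipper protein of the cytoskeleton, was the only region called lower in both CD229+ groups, and was named after its values were seen. It lies at chr4:136458448-136466790, with its midpoint at -7142 bp from the start, and had 26.7, 21.2 and 24.6 CPM in Basal, 15.6, 14.3 and 17.2 CPM in CD229+CD11c- and 11.1, 14.4 and 18.8 CPM in CD229+CD11c+ libraries. These groups did not overlap Basal, and the changes were -0.62 ± 0.19 (edgeR adjusted p = 0.0331) and -0.70 ± 0.19 (edgeR adjusted p = 0.0334). CD229-CD11c- libraries spanned 17.2 to 30.2 CPM. The other fall, at the ubiquitin ligase gene Rnf144b, was in CD229+CD11c+, where Basal had 17.4, 15.6 and 18.3 CPM against 12.2, 12.98 and 11.8 CPM (-0.48 ± 0.14, edgeR adjusted p = 0.0419). Mdfic, also picked after its values were seen, had lower values in both groups, -0.96 ± 0.35 and -1.19 ± 0.36, that did not pass, on 1.52 to 7.83 CPM.

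Between the CD229+ groups, 5 of the 139 were lower in CD229+CD11c+ and none was higher, where 0.824% of all regions were called (0.0532% higher and 0.771% lower). The median difference was -0.11, and the log2 difference was below 0 at 91 regions. It was above 0 at 34.5% of the 139 and at 51.8% of all regions. Among other intronic or intergenic regions with a TSS inside, it was above 0 at 29.3%. Cbarp, a negative regulator of voltage-gated calcium channels (chr10:80136884-80140765, first intron), had 23.8, 14.8 and 16.1 CPM in Basal, 16.9, 17.9 and 21.8 CPM in CD229-CD11c-, 40.1, 36.1 and 42.5 CPM in CD229+CD11c- and 18.6, 16.6 and 19.3 CPM in CD229+CD11c+ libraries. CD229+CD11c- thus stood above the other 3 groups, which overlapped one another. The difference between the CD229+ groups was -1.12 ± 0.15 (edgeR adjusted p = 0.00187), while CD229+CD11c+ differed from Basal by 0.00 ± 0.16. Ocln differed by -0.83 ± 0.19, Dchs1, an atypical cadherin of planar cell polarity, by -0.52 ± 0.10, Nhsl2 by -0.48 ± 0.11 and Lhx6 by -0.32 ± 0.07 (-0.06 with the enrichment offsets). The 5 called became 1 to 3 when any library of either group was left out, 17 when these groups alone were fitted and 1 with total-count scaling. Of the 69 regions called higher in CD229+CD11c- against Basal, 33 were also called in CD229+CD11c+, and 35 of the other 36 had a value above 0 there.

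Against CD229-CD11c- microglia from the same diet, 41 of the 139 were higher and none lower in CD229+CD11c- (8.35% of all regions called, 6.75% higher and 1.6% lower), with a median of 0.31. In CD229+CD11c+ 3 were higher, Cdh23, Ajuba and Ptprf (0.547% of all regions called, 0.395% higher and 0.152% lower), with a median of 0.22. With a block for replicate number the counts were 72 higher and 4 lower, and 45 higher and 6 lower, where 17.5% and 7.69% of all regions were called. Whether the numbers pair these libraries was not settled. Among regions at or above the median level, Spag6, Cbarp and Ptprf had the largest rises of CD229+CD11c- over CD229-CD11c-, at 1.28 ± 0.23, 1.06 ± 0.15 and 1.06 ± 0.11. In CD229+CD11c+, Ajuba rose by 0.80 ± 0.13 and Ptprf by 0.64 ± 0.11. Against Basal, the smallest unadjusted p-values in CD229-CD11c- were at Gm5796 (0.84 ± 0.28, the region at chr14:4018344-4019594), Irx3 (0.19 ± 0.07) and Tmem132c (0.51 ± 0.20), each with an edgeR adjusted p of 0.983. The CD229-CD11c- libraries of Tmem132c had 41.5, 35.1 and 21.5 CPM, so replicates 1 and 2 lay above and replicate 3 below the Basal range of 21.7 to 25.2 CPM.

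Regions with and without a TSS inside were then taken apart. Of the 96 with a TSS inside, 53 were called higher and none lower in CD229+CD11c- microglia, and 31 higher and 1 lower in CD229+CD11c+. Of the 43 without one, 16 and 6 were higher, with 1 lower in each. Medians were 0.49 and 0.40 in CD229+CD11c-, and 0.35 and 0.34 in CD229+CD11c+. Within the top 3 deciles of basal enrichment in the authors' deposited table, 57.3% of the regions with a TSS (47 of 82) were called higher in CD229+CD11c-, and 53.2% of other intronic or intergenic regions holding a TSS, with medians of 0.50 and 0.31. In CD229+CD11c+ the same sets had 34.1% and 21.8% called higher, with medians of 0.38 and 0.17. Without a TSS inside, 37.1% (13 of 35) against 5.96% (231 of 3879) were called higher in CD229+CD11c-, with medians of 0.38 and -0.02, and 11.4% against 2.04% in CD229+CD11c+. These shares are descriptions, since no test of one set against another was made. Among the distal regions called higher were Smad5 (0.64 ± 0.09, 50074 bp from the start), an effector of BMP signalling, and Ptprd. Ptprd, a LAR-type phosphatase like Ptprf, was called higher in both CD229+ groups. Its call in CD229+CD11c+ (0.55 ± 0.15) was lost in 6 of 13 alternatives. The 3 farthest from any TSS were those nearest to Sgcd (-609384 bp, 0.09 ± 0.19), Bcor and H2al1j (164456 bp, 0.38 ± 0.11, edgeR adjusted p = 0.0297, lost in 7 of 13 alternatives).

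**Figure D4:**
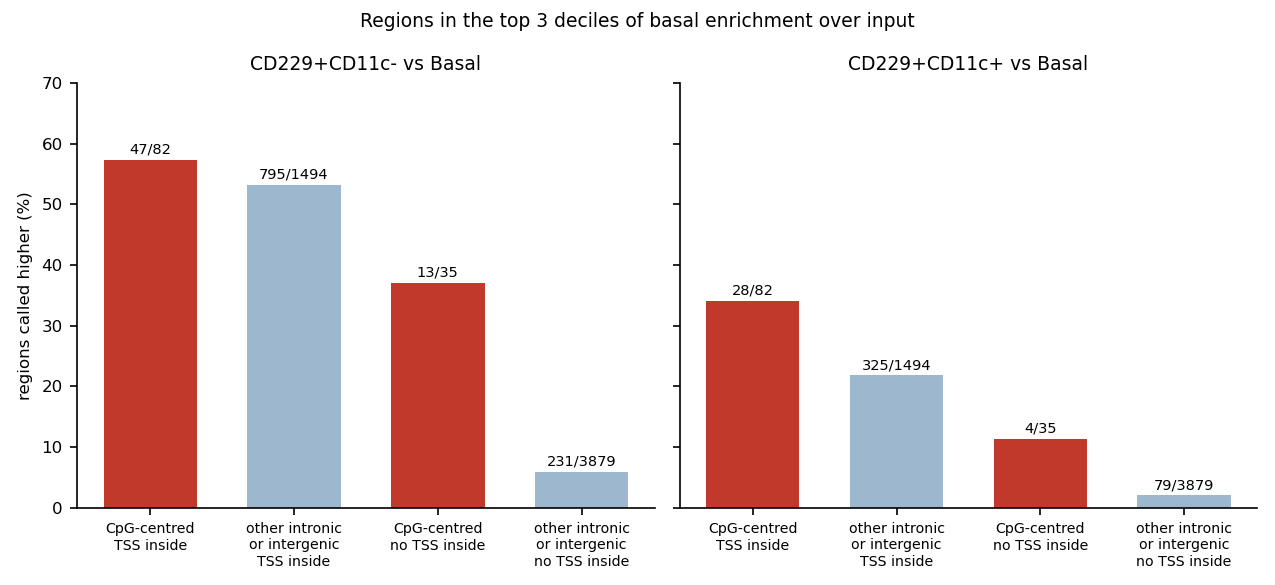
Share of regions called higher (vertical axis, percent) in CD229+CD11c- (left) and CD229+CD11c+ (right) against Basal, within the top 3 deciles of basal enrichment over input, for CpG-centred regions (red) and other intronic or intergenic regions (blue), with and without a TSS inside; numbers over the bars are regions called of regions tested. With a TSS inside the bars on the left are 57.3% and 53.2%, and without one 37.1% and 5.96%.

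Level, length and chromosome varied among the 139. Per kilobase, the highest Basal levels were at Neurog2 (6.77 CPM per kb), Insl3 (6.61), Tspoap1 (6.48), Celf5 (6.22) and Ism2 (5.84), where the median of the 139 was 3.33 CPM per kb and that of all regions 3.00. Neurog2, Celf5, Tspoap1 (0.46 ± 0.09) and Insl3 (0.32 ± 0.08) rose in CD229+CD11c-, although with the enrichment offsets Tspoap1 was at -0.047 and Insl3 at -0.19, and Ism2 had 0.22 ± 0.13 (edgeR adjusted p = 0.284). Of the 69 regions longer than the median, 47 were called higher in CD229+CD11c-, and 22 of the 70 others, with medians of 0.47 and 0.37. In CD229+CD11c+, 23 and 14 were called higher, and the medians had the other order, 0.29 for the longer and 0.44 for the others. Over all regions 9.52% were called higher in CD229+CD11c- and 4.33% in CD229+CD11c+. The number of tags was not matched between longer and shorter regions, and its part in the calls was not tested. Of the 15 on chromosome X, 8 rose in CD229+CD11c- and 3 in CD229+CD11c+, with medians of 0.56 and 0.28, and all 287 X-linked regions had 60 and 19 higher with medians of 0.11 and 0.09. Nexmif, an X-linked gene of neurite outgrowth, rose by 0.87 ± 0.12 and 0.50 ± 0.13, its CD229+CD11c- libraries at 31.4, 33.2 and 30.5 CPM and its Basal libraries at 16.8, 19.5 and 15.6 CPM. The 18 CpG-centred regions nearest to a noncoding RNA, which the rule leaves out, had 6 higher and 1 lower in CD229+CD11c- with a median of 0.38.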

How the data were processed

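H3K27me3 ChIP-seq was made from sorted microglia; 14 H3K27me3 and 14 input libraries belong to the series, and counts of 12 H3K27me3 libraries were used here. The submitters' processing notes name HOMER, DESeq2, fastp (0.20.0), STAR (2.7.0f) and Bowtie2 (2.3.4.1) for the series, with the builds GRCm38 and mm10. Per the file headers, the authors called regions with HOMER from Basal replicates 1 and 2 against input (size 1250, L 0, F 2, log2 fold 1), so Basal chose where to measure. The authors' deposited table of these 26325 regions gives log2 enrichment over input, log2 values of the calling libraries, p-values and the region size. The deposited raw counts are tags per region, with 1 added interval, and were used as deposited. Counts per library set the precision.

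Counts were scaled by TMM and tested in edgeR 4.0.16 (glmQLFit, robust) with all 4 groups in one model, over all 26326 regions, adjusted by Benjamini-Hochberg, and called at an adjusted p under 0.05. The SE is the fold change divided by the root of F. CPM use TMM scaling. The test was checked on simulated data. Alternatives were RLE and total-count scaling, DESeq2 1.42.0, no filter, a mean count of at least 50, only the groups compared, the PE150 tag, loess offsets (span 0.5) on basal enrichment and density, a replicate block, a log2 fold of at least 0.5, and each library left out. Deviations of same-numbered CD229-CD11c- and CD229+ libraries correlated at 0.289, 0.131 and 0.464 (CD229+CD11c-) and 0.242, 0.136 and 0.423 (CD229+CD11c+). Those of the CD229+ groups with each other had 0.205, 0.0858 and 0.338. Replicates 1 and 2 also correlated across unlike numbers, at 0.147 and 0.252, 0.127 and 0.189, and 0.0942 and 0.0981 in the same order of groups. Replicate 3 had -0.379 to -0.144 with replicates 1 and 2 of the other cuprizone groups. These values set replicate 3 apart and do not show that replicates 1 and 2 pair by number.

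Named regions were, for the CD229+ groups against Basal and against each other, up to 8 with the largest change each way among those called, at or above the members' median level, not overlapping between groups and with a named nearest gene; up to 3 in the other comparisons; the first 3 by p in each of 20 gene lists; the 5 densest, the 3 longest, those just over the length limit and the 3 farthest from a TSS. Where none was called, the 3 smallest p-values were named. Adamts19, Amph, Cdh8, Epha2, Gabrb1, Luzp1, Mdfic, Nos1, Nptxr, Ocln, Rnf144b, Sema5a, Smad5 and Tenm3 fall outside this rule and were chosen after their values were seen. Members, lists and tests were chosen with earlier results of these data known. One symbol damaged by a spreadsheet was restored from its Entrez ID. Inputs entered through the authors' deposited enrichment over input, used for the levels over input, the deciles and the loess offsets given here. The authors' log2 values of the calling libraries gave the density in those offsets. No other normalised table of the authors was used.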

Additional observations from a re-analysis of the deposited data

Results flagged for a closer look

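The effect against Basal differed between the CD229+ groups at 5 regions by the test of the difference itself (edgeR, CD229+CD11c+ against CD229+CD11c-, on the log2 scale): Cbarp at -1.12, Ocln at -0.83, Dchs1 at -0.52, Nhsl2 at -0.48 and Lhx6 at -0.32. At Cbarp, 3 of 3 CD229+CD11c+ libraries were below every CD229+CD11c- library, and no alternative that gave an adjusted p ended the call. The call ended in 6 of 14 alternatives for Dchs1 and in 8 of 14 each for Nhsl2 and Lhx6.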

How the results depend on the processing

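Counts of the 139 regions called moved by over 1.5 times under these settings. Calls over all regions moved too, and percentages in brackets are the share of all regions called in the same fit. With PE150 libraries alone the counts were 21 (3.48%, with none in all libraries) for CD229-CD11c- and 88 (16.2%) for CD229+CD11c+ against Basal. They were 31 (3.54%) for CD229+CD11c+ against CD229-CD11c- and 26 (5.31%) between the CD229+ groups. With the PE150 tag as a covariate they were 86 (17.2%), 47 (6.22%) and 37 (7.29%) in the last 3 of these comparisons. For CD229+CD11c- against CD229-CD11c- that covariate gave 72 (16.6%). Loess offsets gave 37 (7.76%) for CD229+CD11c- against Basal, 19 (3.13%) against CD229-CD11c- and 1 (0.171%) between the CD229+ groups. Fits of only the groups compared gave 67 (11.3%) for CD229+CD11c+ against Basal and 17 (2.4%) between the CD229+ groups. A log2 fold of at least 0.5 left 25 and 3 in these comparisons, with no share taken over all regions. Between the CD229+ groups total-count scaling left 1 (0.106%) and DESeq2 gave 12 (2.54%). For CD229+CD11c+ against CD229-CD11c- DESeq2 gave 9 (1.22%). With the replicate block, counts were 76 (17.5%) and 51 (7.69%) for CD229+CD11c- and CD229+CD11c+ against CD229-CD11c-. Between the CD229+ groups 41 were called (4 higher, 37 lower), against 8.35% of all regions. Whether replicate numbers pair any of these groups was not settled. No paired analysis was possible for Basal because it shares 1 replicate number with each other group. Leaving out 1 library gave 0 to 1 calls (0.0% to 0.114%) for CD229-CD11c-, 44 to 68 (7.92% to 12.5%) for CD229+CD11c- and 8 to 50 (1.68% to 6.1%) for CD229+CD11c+ against Basal. Against CD229-CD11c- it gave 33 to 51 (5.82% to 9.79%) and 2 to 5 (0.167% to 1.03%), and between the CD229+ groups 1 to 3 (0.0342% to 0.596%). In every such fit 40 regions were called higher in CD229+CD11c- and 7 in CD229+CD11c+ against Basal. Under loess offsets Insl3 (-0.19) and Tspoap1 (-0.047) reversed in CD229+CD11c- against Basal. Of 671 alternative values for 51 named results, 43 of them called, 557 kept their direction and side of the threshold, 98 lost the call and 14 gained it; where not stated, the cause was not tested. Low counts limit the regions at Cdh8, Mdfic and Gm5796, under 10 CPM in every library.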
